A study of Mus musculus with 797 samples.

Results

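The axon guidance genes described here are the ligands and receptors of the netrin, Slit, semaphorin and ephrin systems, read in single mouse brain nuclei. Every gene of the count table whose symbol belongs to the families Ntn, Dcc, Unc5, Slit, Robo, Sema, Plxn, Nrp1 and Nrp2, Efn or Eph was taken, which gave 72 of 32285 genes. There are 20 semaphorins, 14 Eph receptors, 12 genes of the plexin family name, 8 ephrins, 4 netrins, 4 Unc5 receptors, 4 Robo receptors, 3 Slits, 2 neuropilins and Dcc. Protein-coding genes make up 69 of them, and the other 3 (Plxna4os1, Plxna4os2 and Plxna4os3) are RNAs opposite to Plxna4.

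The nuclei came from C57Bl/6J mice given 1 adeno-associated virus each in the capsid PHP.eB, which crosses the blood-brain barrier, at 5e11 vector genomes per mouse in young adulthood. Every vector drove H2B-SYFP2, a histone-fused yellow fluorescent protein that marks nuclei, from an enhancer or promoter, and YFP-positive nuclei were sorted 3 to 4 weeks later and sequenced individually with SMART-Seq v4. The 797 nuclei used fall under 20 vector labels: CMV, hSyn1, DLX2.0, hI56i and 16 labels that begin with AiE. All groups share strain, capsid, reporter and dose, no untreated nuclei were used, and the sorted fluorescence depends on what each vector drives, so a vector label decides which cell classes it contributes. The labels name no animal, so nuclei of 1 vector label were treated as 1 sample, here called a vector group, and p-values measure the spread between vector groups.

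Guidance molecules steer growing axons. Netrins attract through Dcc and repel through Unc5 receptors, Slits repel through Robo receptors, secreted class 3 semaphorins act through neuropilins with plexins while most other semaphorins bind plexins directly, and ephrins signal to Eph receptors on the touching cell and back into their own cell. In the adult brain the same proteins are known for roles at synapses, in spine stability and in cell identity, and neuron types of the cortex are known to carry different sets of them.

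Of the 797 nuclei, 781 had at least 50000 reads and 1000 genes. A nucleus was called glutamatergic where Slc17a7, whose product loads glutamate into synaptic vesicles, reached 10 CPM (read counts scaled to 1000000 per nucleus) and the sum of Gad1 and Gad2, the GABA-synthesizing enzymes, did not. The reverse gave the GABAergic class. This placed 385 nuclei in the glutamatergic and 310 in the GABAergic class, left out 50 that passed both gates and 36 that passed neither, and gave median depths of 279379 and 318172 reads. The glutamatergic class was split by whichever of Cux2 (upper layers), Rorb (middle layers) or Foxp2 (deep layers) was highest at 10 CPM or more, into 75, 75 and 50 nuclei with 185 unassigned. The GABAergic class was split by Pvalb, Sst and Adarb2 into 137, 104 and 52 nuclei with 17 unassigned.

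The marker lists, read here without the gating genes that they hold, differed between the classes. All 6 other glutamatergic markers were read in at least 10% of glutamatergic nuclei and 1 of the 6 in GABAergic nuclei, and of the 5 other GABAergic markers all 5 were in GABAergic and 1 in glutamatergic nuclei. The glutamatergic markers summed to 1025 to 3112 CPM in glutamatergic sums and to 40.1 to 195 CPM in GABAergic sums. All nuclei are labelled striatum, yet the defining markers of its projection neurons were nearly missing, with Adora2a and Isl1 read in 0 of 781 nuclei, Drd2 in 5 and Drd1 in 47. The label and the gated cortical-type classes therefore go against each other, and the classes are named here by their gating genes only. Oligodendrocyte precursor, microglial, and endothelial and mural markers summed to at most 55.7 CPM in any class sum, while astrocyte markers reached 252 CPM and oligodendrocyte markers 644 CPM. Subclass sums, which rest on fewer nuclei, went higher: microglial markers to 318 CPM in Rorb nuclei, endothelial and mural markers to 84.3 CPM in Rorb nuclei, precursor markers to 135 CPM in Pvalb nuclei, astrocyte markers to 601 CPM in Rorb nuclei and oligodendrocyte markers to 1175 CPM in Foxp2 nuclei. Their part in the results was not tested beyond leaving out nuclei with a glial or vascular marker.

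The library names fall into 3 sets, A with 528, B with 181 and C with 88 of the 797 nuclei. All 78 nuclei with over 1% mitochondrial reads were in set B, which supplied 98 of the 385 glutamatergic and 58 of the 310 GABAergic nuclei. Within a vector group the classes often came from different sets: 12 vector groups held at least 5 nuclei of each class, but only 6 combinations of vector and set did. The nuclei used 592 index pairs, 205 of them in 2 libraries, and nuclei with a shared index pair were no more alike (median correlation 0.303) than other pairs across sets (0.305). No 2 nuclei had identical counts.

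Promoters of 4 genes on which class or subclass differences turn are shown for orientation, each as the 250 bases before the RefSeq start on the gene's own strand (GRCm38.p6). Gene positions given below are from GENCODE M21, which places these starts differently. The Nrp1 and Sema3c windows lie inside the GENCODE gene spans, the Sema4g window mostly and the Robo3 window partly. They are Robo3 and Nrp1, called higher in glutamatergic nuclei, Sema4g, called higher in GABAergic nuclei, and Sema3c, called between Adarb2 and Pvalb nuclei. Capitals mark CAGATG or its reverse complement CATCTG, a sequence bound by neurogenic basic helix-loop-helix factors, and TAATTA, a homeodomain core that is its own reverse complement.
Robo3, chr9:37433176-37433425, minus strand: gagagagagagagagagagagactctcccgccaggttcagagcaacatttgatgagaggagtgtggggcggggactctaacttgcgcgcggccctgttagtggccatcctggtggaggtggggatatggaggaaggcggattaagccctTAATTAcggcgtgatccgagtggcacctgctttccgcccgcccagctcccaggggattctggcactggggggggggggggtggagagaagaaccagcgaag
Nrp1, chr8:128358823-128359072, plus strand: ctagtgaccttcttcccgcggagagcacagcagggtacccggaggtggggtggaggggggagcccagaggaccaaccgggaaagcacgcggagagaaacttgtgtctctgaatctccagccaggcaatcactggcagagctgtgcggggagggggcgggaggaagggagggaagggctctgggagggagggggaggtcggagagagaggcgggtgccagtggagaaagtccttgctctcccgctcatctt
Sema4g, chr19:44989094-44989343, plus strand: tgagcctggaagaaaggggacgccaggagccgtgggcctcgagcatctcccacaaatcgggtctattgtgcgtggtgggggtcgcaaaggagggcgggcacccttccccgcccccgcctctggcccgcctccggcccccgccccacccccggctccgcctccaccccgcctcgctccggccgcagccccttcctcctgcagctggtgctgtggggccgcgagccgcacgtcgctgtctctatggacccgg
Sema3c, chr5:17574566-17574815, plus strand: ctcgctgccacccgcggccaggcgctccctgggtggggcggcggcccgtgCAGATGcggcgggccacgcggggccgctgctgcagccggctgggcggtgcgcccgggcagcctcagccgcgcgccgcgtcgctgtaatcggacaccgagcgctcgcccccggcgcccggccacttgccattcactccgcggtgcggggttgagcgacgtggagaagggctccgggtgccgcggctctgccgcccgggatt
Of 32851 promoter windows in that table, 14.44% hold CAGATG on either strand and 4.84% hold TAATTA. The table has 75 windows for 59 of the 72 guidance genes, of which 5 genes hold CAGATG (Efna3, Epha1, Epha6, Sema3c and Sema4a) and 3 hold TAATTA (Efna1, Epha5 and Robo3). Among the genes with CAGATG, Sema4a was read more often in glutamatergic nuclei and Sema3c most often in the GABAergic Adarb2 nuclei. Among those with TAATTA, Robo3 was read in glutamatergic but not in GABAergic nuclei, and Epha5 was read widely in both classes.

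Guidance genes were widely read in both classes. At least 1 read was found in 10% or more of the nuclei for 37 of the 72 genes in the glutamatergic and 34 in the GABAergic class. With every nucleus thinned to 100000 reads these counts were 36 and 32, and without library set B they were 35 and 27. A glutamatergic nucleus held reads of a median of 10 guidance genes (range 1 to 31 after thinning) and a GABAergic nucleus of 8 (2 to 24). Efna4 and Plxnb3 had no read in any of the 781 nuclei. Among subclasses the number of genes read in 10% or more of the nuclei ran from 26 in Pvalb nuclei to 37 in Foxp2 nuclei.

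**Figure D1:**
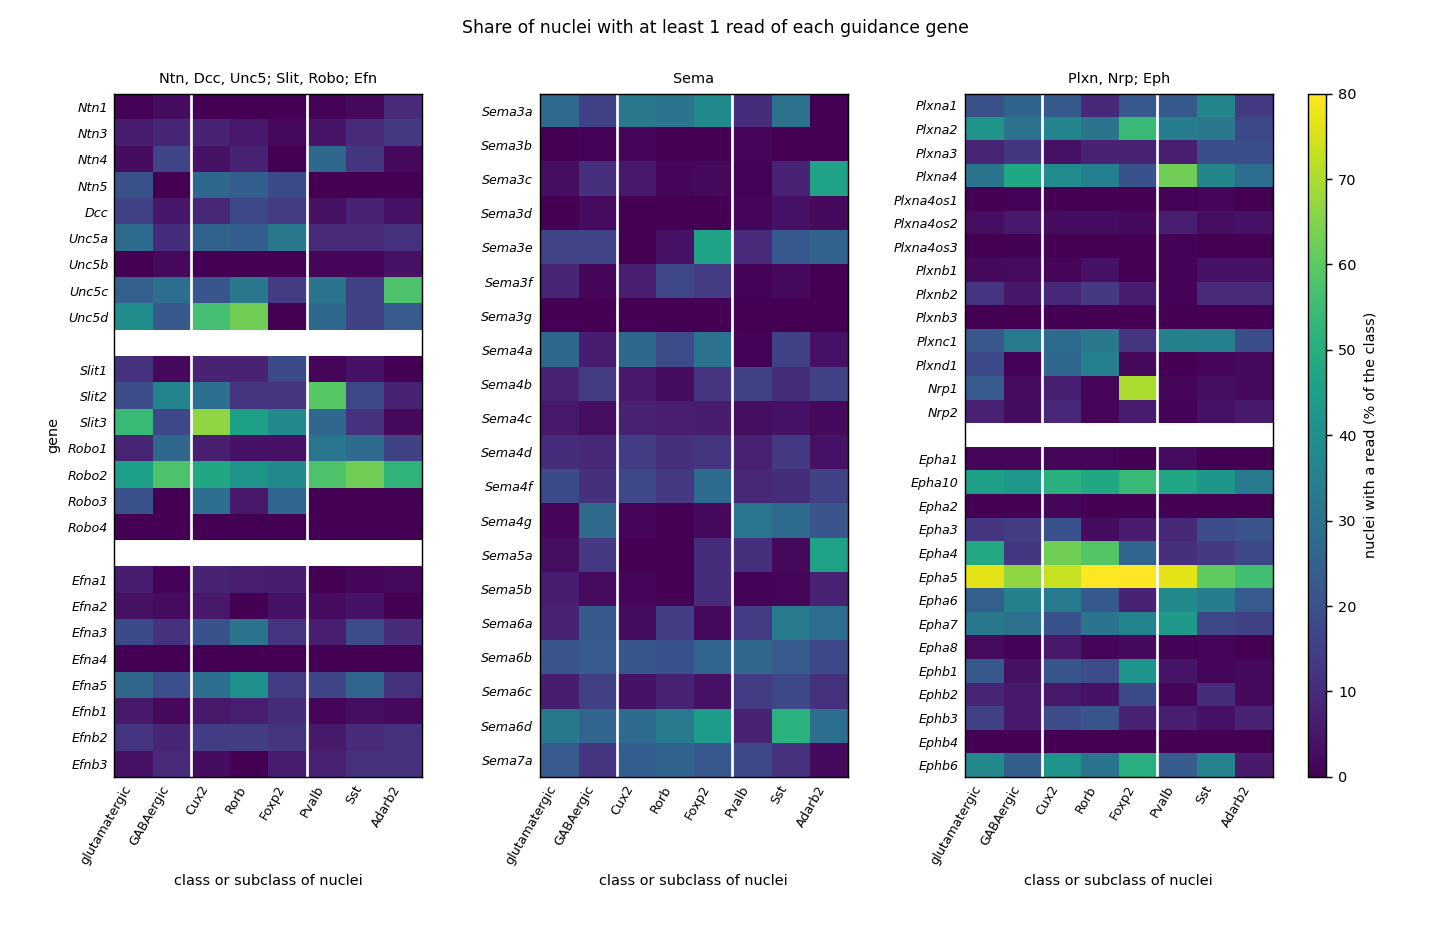
Share of nuclei with at least 1 read (colour, percent of the class) for the 72 guidance genes in rows, by glutamatergic and GABAergic class and by the 6 subclasses in columns, with no correction for depth. Epha5 is high in every column, Robo3 and Ntn5 are dark in the GABAergic columns, and Nrp1 stands out in the Foxp2 column and Sema3c in the Adarb2 column.

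Between the classes, 44 of the 72 genes passed the filter on low counts and were tested over the 12 vector groups with edgeR's quasi-likelihood test, with the vector group as a block and Benjamini-Hochberg adjustment over all 10633 genes tested. Higher in glutamatergic nuclei were 6 guidance genes: Epha4, Robo3, Nrp1, Sema4a, Ephb1 and Slit3. Higher in GABAergic nuclei were 3: Sema4g, Sema5a and Ntn4. The 6 are 13.6% of the members tested, where 3.57% of all genes tested were called higher, and the 3 are 6.82%, where 3.35% of all genes were called lower, and 6.92% were called in either direction. The median fitted difference of the 44, glutamatergic minus GABAergic, was 0.42 on the log2 scale beside -0.28 for all genes tested.
By family the 9 calls were 2 of 10 Eph receptors tested, 1 of 3 Robo receptors, 1 neuropilin, 1 of 2 Slits, 3 of 14 semaphorins and 1 netrin, with 0 of 6 plexins, 0 of 3 ephrins, 0 of 3 Unc5 receptors and not Dcc. The cytoplasmic RNA markers, which include mitochondrial genes, differed between the same sums, from 491 to 5549 CPM (median 1874) in glutamatergic and from 436 to 19977 CPM (median 711) in GABAergic sums. Without the nuclei over 1% mitochondrial reads 7 guidance genes were called, where 5.94% of all genes tested were. In the 6 combinations of vector and set 0 were called by edgeR, where 1.13% of all genes tested were, and 9 had an unadjusted p under 0.05. The edgeR adjusted p of the 8 genes above that were tested there ran from 0.0506 for Sema4a to 0.591 for Ephb1. In set A alone with 4 vector groups 0 were called (0.363% of all genes), with 4 at an unadjusted p under 0.05. Without set B, in 7 vector groups, Epha4 and Robo3 were called, where 2.79% of all genes tested were. Sema4a and Ntn4 did not pass the filter there, and the other 5 of the 9 missed the threshold (0.127 to 0.46). Without the filter on low counts 11 guidance genes were called, where 5.14% of all genes tested were. They were 8 of the 9 (Slit3 missed at 0.0647), with Ntn5, Plxnd1 and Efna1 in addition. The 9 genes kept the sign of the fitted difference in each alternative that tested them.

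**Figure D2:**
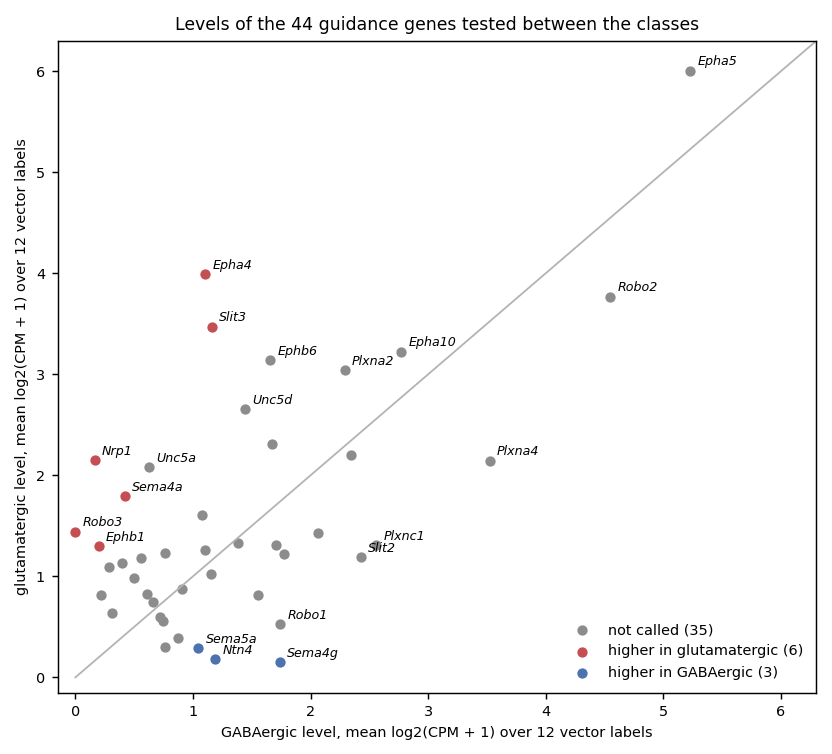
Mean level, log2(CPM + 1) averaged over nuclei and then over the 12 vector groups, of the 44 guidance genes tested, GABAergic on the x axis and glutamatergic on the y axis, with the line of equal level. Red points (6) were called higher in glutamatergic and blue points (3) higher in GABAergic nuclei; Epha5 and Robo2 lie near the line at high levels.

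Between subclasses of glutamatergic nuclei, 39 guidance genes were tested in 1 fit. In Foxp2 against Cux2 nuclei (8 vector groups), 2 were higher, Nrp1 and Sema3e, where 0.22% of all 9111 genes tested were called higher. Unc5d was lower, where 0.779% were called lower (0.999% in either direction). In Foxp2 against Rorb nuclei (8 vector groups), Nrp1 was higher and Unc5d lower, with 0.154% and 0.779% of all genes called in those directions and 0.933% in either. In Rorb against Cux2 nuclei (10 vector groups), 0 of 39 were called by edgeR, where 0.022% of all genes were (0.011% higher and 0.011% lower). Of the 39, 5 had an unadjusted p under 0.05. DESeq2 called 4 guidance genes there, and 3.39% of all genes tested. The median fitted difference (log2) of all genes tested was -0.476 in Foxp2 against Cux2, -0.459 in Foxp2 against Rorb and 0.011 in Rorb against Cux2. For the guidance genes it was -0.763, -0.579 and -0.446. The 3 comparisons share their sums, so their calls are not independent.

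Between subclasses of GABAergic nuclei, 41 guidance genes were tested among 11114 genes. In Sst against Pvalb nuclei (13 vector groups), Sema6d was higher (0.81% of all genes called higher) and Sema5a lower (1.18% called lower, 1.99% in either direction). In Adarb2 against Pvalb nuclei (8 vector groups), Sema3c and Plxnb2 were higher (0.765%) and Slit2 and Slit3 lower (3.43%), with 4.19% of all genes called in either direction. In Adarb2 against Sst nuclei (7 vector groups), Sema5a was higher (0.324%) and Sema3a and Slit2 lower (0.936%), with 1.26% in either direction. The median fitted difference (log2) of all genes tested was below 0 in each: -0.481 in Sst against Pvalb, -1.181 in Adarb2 against Pvalb and -0.654 in Adarb2 against Sst. For the guidance genes it was -0.076, -0.783 and -0.329. Thinned Pvalb, Sst and Adarb2 nuclei held medians of 3108, 2689 and 2348.5 genes. The part of this shift in the calls was not tested. Over the 7 comparisons 50 guidance genes were tested, 16 were called in at least 1, and 22 were tested in none.

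Netrins are secreted, laminin-related ligands. Ntn4 was read in 2.6% of glutamatergic and 16.8% of GABAergic nuclei. Its summed level per vector group was 0 to 23.3 CPM (median 0.11) in glutamatergic and 2.17 to 133 CPM (median 14.1) in GABAergic sums, higher in the GABAergic sum of all 12 vector groups although the ranges overlapped. The mean level differed by -1.01 ± 0.83 log2(CPM + 1) (glutamatergic minus GABAergic, SD, n = 12), with an edgeR adjusted p of 0.0349. The call was lost without any 1 of AiE0390m, AiE0410m, AiE0452h, AiE0682h, AiE0743m_3xC2, DLX2.0 and hSyn1 (adjusted p 0.062 to 0.0859), and in 3 of the 10 alternatives that tested it (0.0845 to 0.226).
Ntn4 reads lay in 27.01% of Pvalb, 12.5% of Sst and 1.92% of Adarb2 nuclei. The Ntn4 gene overlaps Gm15915 and Gm15963 on the opposite strand, and reads were not separated between them.

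Ntn5, another netrin family member, was chosen for description after its values were seen. It was read in 76 of 385 glutamatergic nuclei (19.7%, 95% Clopper-Pearson interval 15.9 to 24.1) and in 0 of 310 GABAergic nuclei (upper limit of the share 0.968%, set by 3 nuclei and covering counting error over nuclei only). Its glutamatergic sums ran from 0 to 129 CPM with a median of 27.7, and 11 of 12 were above 0. Ntn5 did not pass the filter on low counts. Tested without that filter it was called higher (edgeR adjusted p 2.17e-05). Ntn5 lies at chr7:45684022-45694556 (mm10) and overlaps Sec1 on the opposite strand, and the strand setting of the counting is not given in the sources used here, so reads of the 2 genes cannot be told apart. The shares were 26.7% in Cux2, 24% in Rorb and 18% in Foxp2 nuclei.
Ntn1 and Ntn3 were read in few nuclei: Ntn1 in 0.78% of glutamatergic and 2.58% of GABAergic nuclei, and Ntn3 in 6.49% and 8.71%.

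Of the netrin receptors, Dcc was read in 15.8% of glutamatergic and 5.16% of GABAergic nuclei. Its glutamatergic sums ran from 0 to 149 CPM (median 21.5) and its GABAergic sums from 0 to 25.1 CPM (median 3.41), with the glutamatergic level above the GABAergic in 10 of 12 vector groups and an edgeR adjusted p of 0.56. Unc5a was above in 12 of 12 vector groups, with sums of 3.96 to 158 CPM (median 34.9) against 0 to 29.97 CPM (median 8.65), and missed the threshold at an adjusted p of 0.0914. Unc5a overlaps Hk3 on the opposite strand. Unc5c was read in 24.4% and 29.03% of the classes (adjusted p 0.522), and among subclasses most often in Adarb2 nuclei (57.7%). Unc5b was read in 0.26% and 1.61%.

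Unc5d, a repulsive netrin receptor that also binds the cell-surface protein Flrt2, set Foxp2 nuclei apart from Cux2 and Rorb nuclei. Reads were found in 56.0% of Cux2 and 62.7% of Rorb nuclei and in 0 of 50 Foxp2 nuclei (upper limit 6.0%). Between Rorb and Cux2 nuclei Unc5d was not called. Of the 185 glutamatergic nuclei without a subclass, 62 had a read (33.5%, 26.8 to 40.8). In the 8 vector groups with both sums, Unc5d ran from 10.5 to 229 CPM (median 65.3) in Cux2 nuclei and was 0 in every Foxp2 sum. The edgeR adjusted p was 0.00058. Against Rorb nuclei, where the 8 sums ran from 22.2 to 163 CPM (median 116), the Foxp2 sums were again all 0 (edgeR adjusted p 0.000279). The groups did not overlap in either comparison. The call against Rorb held under all 15 alternatives and with each of 12 vector groups left out; the call against Cux2 was lost with library set A alone (adjusted p 0.121).
Of the 6 deep-layer markers other than Foxp2 itself, 5 were read in at least 10% of Foxp2 nuclei (170 to 1318 CPM summed). In Rorb nuclei 3 were (0 to 351 CPM) and in Cux2 nuclei 1 (0 to 206 CPM). The ranges of the Rorb and Cux2 sums each overlapped that of the Foxp2 sums. Unc5d spans chr8:28646717-29219636 (mm10, minus strand) and overlaps no other gene of the table. Between the classes it was read in 39.2% of glutamatergic and 22.3% of GABAergic nuclei and was not called (adjusted p 0.262).

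The 3 Slits, large secreted ligands, had 3 different distributions. Slit3 was read in 54.0% of glutamatergic and 17.4% of GABAergic nuclei. Its sums ran from 27.7 to 187 CPM (median 80.4) in glutamatergic and from 1.82 to 65.9 CPM (median 24.5) in GABAergic nuclei, and the glutamatergic level was above the GABAergic in 12 of 12 vector groups. The level difference was 2.31 ± 1.19 log2(CPM + 1) (SD, n = 12), and the fitted difference 1.85 ± 0.55 (log2, SE) with an edgeR adjusted p of 0.0459. That p is close to the threshold: the call was lost without any 1 of 10 vector groups (adjusted p 0.0522 to 0.109), all except AiE0390m and DLX2.0. It was also lost in 9 of 14 alternatives (0.0505 to 0.849). Slit3 overlaps Gm12122 on the same strand, and reads were not separated between them here. Among Slit3 shares in the subclasses the order was Cux2 66.7%, Rorb 45.3%, Foxp2 38%, Pvalb 27.01%, Sst 11.5% and Adarb2 1.92%.
Against Pvalb sums of 7.37 to 84.4 CPM (median 41.0), 7 of 8 Adarb2 sums had no Slit3 read and the other was 18.7 CPM (adjusted p 0.0257). This call was lost without AiE0390m, AiE0447h, AiE0600m, CMV, AiE0450h or hI56i (adjusted p 0.0514 to 0.064), and in 6 of 15 alternatives (0.0602 to 0.185).

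Within the GABAergic class Slit2 was read most often in Pvalb nuclei. It was found in 59.1% of Pvalb, 17.3% of Sst and 7.69% of Adarb2 nuclei, and in 29.3% of the glutamatergic Cux2 nuclei. Pvalb sums ran from 42.6 to 278 CPM (median 144) in the 8 vector groups shared with Adarb2 nuclei, whose sums ran from 0 to 1.03 CPM with 5 of 8 at 0. The groups did not overlap, and the level difference, Adarb2 minus Pvalb, was -3.86 ± 1.17 log2(CPM + 1) (SD, n = 8). The call held under all 15 alternatives, with a largest adjusted p of 0.00471. Against Sst nuclei (0 to 213 CPM, median 61.8, in 7 vector groups) the adjusted p was 0.0459, and the call was lost without any 1 of AiE0452h, AiE0600m, AiE0682h, AiE0743m_3xC2, DLX2.0, hSyn1, AiE0450h and hI56i (0.0569 to 0.165) and in 5 of 15 alternatives (0.0524 to 0.441). Slit2 (chr5:47983138-48307733, mm10) overlaps Gm20475 on the same strand and 4930518C09Rik on the opposite strand. The Pvalb interneuron markers other than Pvalb itself, 5 of 5 read in at least 10% of Pvalb and 4 of 5 in Adarb2 nuclei, summed to 1562 to 3265 CPM in Pvalb and 265 to 820 CPM in Adarb2 sums.
Between the classes Slit2 was read in 18.96% and 35.8% of nuclei and was not called (adjusted p 0.23). Slit1 was read in 11.4% of glutamatergic and 1.94% of GABAergic nuclei and did not pass the filter.

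Among the Robo receptors Robo3 was called between the classes. Robo3 is a divergent Robo receptor known from commissural axons, where it is a receptor of Nell2. It was read in 76 of 385 glutamatergic nuclei (19.7%, 15.9 to 24.1) and in 0 of 310 GABAergic nuclei (upper limit 0.968%). The 12 glutamatergic sums ran from 7.02 to 120 CPM (median 46.4) and all 12 GABAergic sums were 0, so the groups did not overlap. The level difference was 1.44 ± 0.43 log2(CPM + 1) (SD, n = 12), with an edgeR adjusted p of 0.000946. The call was kept without library set B (7 vector groups, adjusted p 0.0343) and lost in the 6 combinations of vector and set (0.0656) and in set A alone (4 vector groups, 0.262), with GABAergic sums still at 0. The single nucleus with the most Robo3 reads held 8.5% of them. The gene (ENSMUSG00000032128) lies at chr9:37415669-37433246 on the minus strand and overlaps no other gene of the table, and its promoter, printed above, holds 1 TAATTA. Shares were 29.3% in Cux2, 5.33% in Rorb and 26% in Foxp2 nuclei, a spread among subclasses that no test called.

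The Slit receptors Robo1 and Robo2 were not called. Robo1 was read in 8.31% of glutamatergic and 27.1% of GABAergic nuclei, with sums of 0 to 30.3 CPM (median 10.6) against 17.2 to 97.8 CPM (median 40.7). The GABAergic level was above the glutamatergic in 12 of 12 vector groups, and the edgeR adjusted p was 0.15. Robo2 was read in 45.2% and 57.7%, with sums of 29.3 to 216 CPM (median 170) and 94.5 to 266 CPM (median 174) (adjusted p 0.58). Robo4, the endothelial member, had no read in either class.

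Among semaphorins, Sema4a and Sema4g, both membrane-anchored class 4 members, were called in opposite directions. Sema4a was read in 26.8% of glutamatergic and 6.45% of GABAergic nuclei. Its sums ran from 14.9 to 141 CPM (median 61.6) against 0 to 54.6 CPM (median 0.57, with 5 of 12 at 0), and the glutamatergic level was above in 11 of 12 vector groups. The level difference was 1.37 ± 1.29 log2(CPM + 1) (SD, n = 12), with an edgeR adjusted p of 0.0103. In 5 of the 12 alternatives that tested it the call was lost (0.0506 to 0.143), and without library set B or without nuclei over 1% mitochondrial reads Sema4a did not pass the filter. Within the GABAergic class 15.4% of Sst nuclei had a Sema4a read, beside 0.73% of Pvalb and 3.85% of Adarb2 nuclei.

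Sema4g was read in 1.56% of glutamatergic and 27.7% of GABAergic nuclei (22.8 to 33.1). The GABAergic sums ran from 18.5 to 93.7 CPM (median 39.6) and 8 of the 12 glutamatergic sums were 0, with 1 reaching 43.97 CPM. A single nucleus held 82.8% of the Sema4g reads of the glutamatergic class. The GABAergic level was above in 12 of 12 vector groups, and glutamatergic minus GABAergic was -1.59 ± 0.68 log2(CPM + 1) (SD, n = 12), with an edgeR adjusted p of 0.00107. All 12 fits with 1 vector group left out kept the call; it was lost without library set B (adjusted p 0.127), in the combinations of vector and set (0.252) and in set A alone (0.822). The subclass shares were similar in size, 31.4% of Pvalb, 27.9% of Sst and 21.2% of Adarb2 nuclei. Sema4g (ENSMUSG00000025207) lies at chr19:44989101-45003397 on the plus strand.

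Sema5a, a membrane semaphorin with thrombospondin repeats, was read in 3.12% of glutamatergic and 13.2% of GABAergic nuclei. The Sema5a gene overlaps 4930465K09Rik on the opposite strand, and reads were not separated between them. GABAergic sums ran from 11.9 to 90.6 CPM (median 44.5), glutamatergic sums from 0 to 57.04 CPM with 7 of 12 at 0, and the edgeR adjusted p was 0.0323. The call was lost without any 1 of AiE0410m, AiE0447h, AiE0452h, AiE0475m, AiE0682h, DLX2.0 and hSyn1 (adjusted p 0.0591 to 0.0704), and in 5 of 14 alternatives (0.318 to 0.813). Within the GABAergic class Sema5a was read in 46.2% of Adarb2, 10.9% of Pvalb and 1.92% of Sst nuclei. Adarb2 sums of 7.07 to 385 CPM (median 182) stood against Sst sums of which 6 of 7 were 0 and the other 33.4 CPM (adjusted p 0.007). That call was kept with each of 14 vector groups left out and lost with library set A alone (0.0826) and with at least 5 nuclei per sum (0.281). In Sst against Pvalb nuclei, 11 of 13 Sst sums were 0 beside Pvalb sums of 0 to 143 CPM (median 21.2), with an adjusted p of 0.0287. The call against Pvalb was lost without any 1 of AiE0390m, AiE0391h, AiE0452h, AiE0475m, AiE0682h, AiE0743m_3xC2, CMV, DLX2.0 and hI56i (0.0574 to 0.0797), and in 6 of 15 alternatives (0.0589 to 0.305).

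Sema3c, a secreted semaphorin that binds neuropilins, was read in 46.2% of Adarb2 nuclei, 7.69% of Sst nuclei and 0.73% of Pvalb nuclei. All 8 Adarb2 sums were high, from 96.5 to 424 CPM (median 183), and 7 of 8 Pvalb sums were 0 with the other at 18.7 CPM, so the groups did not overlap. The level difference, Adarb2 minus Pvalb, was 3.63 ± 1.02 log2(CPM + 1) (SD, n = 8), with an edgeR adjusted p of 2.44e-05. The call held under all 15 alternatives, with a largest adjusted p of 0.00918, and with each of 14 vector groups left out. All 6 Adarb2 interneuron markers other than Adarb2 itself were read in at least 10% of Adarb2 nuclei, with 1302 to 14579 CPM summed, and 2 of 6 in Pvalb nuclei (24.6 to 375 CPM). The 5 Sst interneuron markers other than Sst itself summed to 742 to 7461 CPM (median 4483) in Adarb2 sums. In Sst sums they reached 1231 to 9307 CPM (median 2738), a lower median than in Adarb2 sums. Of these markers, 4 were read in at least 10% of Sst and 3 in Adarb2 nuclei. Their part in the result was not tested. Sema3c (ENSMUSG00000028780) lies at chr5:17574281-17730268, and its promoter, printed above, holds 1 CAGATG.

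Sema3e, a secreted semaphorin that binds Plxnd1 without a neuropilin, was read in 46.0% of Foxp2 nuclei, 4.0% of Rorb nuclei and 0 of 75 Cux2 nuclei. The Sema3e gene overlaps Gm4128 on the opposite strand, and reads were not separated between them. The 8 Foxp2 sums ran from 0 to 445 CPM (median 128) with 1 at 0, and all 8 Cux2 sums were 0. The edgeR adjusted p was 0.0074. The call was lost without library set B (0.472), in set A alone (0.679), in sums per vector and set (0.485), with the library set as a term (0.515) and without the nuclei over 1% mitochondrial reads (0.0799).
Its receptor Plxnd1 was read in 26.7% of Cux2, 34.7% of Rorb and 2.0% of Foxp2 nuclei. Plxnd1 reads were found in 17.7% of glutamatergic and 0.65% of GABAergic nuclei, where the 2 nuclei held 1 read each. Plxnd1 did not pass the filter on low counts in the class comparison, and without that filter it was called higher in glutamatergic nuclei (edgeR adjusted p 0.00161). Between subclasses it was not called without the filter either.

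Nrp1, the neuropilin that binds class 3 semaphorins and vascular endothelial growth factor, was read most often in the Foxp2 nuclei among the subclasses. It was read in 35 of 50 Foxp2 nuclei (70.0%, 55.4 to 82.1), 6.67% of Cux2 and 1.33% of Rorb nuclei, and in 48 of the 185 glutamatergic nuclei without a subclass (25.9%, 19.8 to 32.9). In all, 89 glutamatergic nuclei had an Nrp1 read. The 8 Foxp2 sums compared with Cux2 ran from 69.9 to 898 CPM (median 375), the Cux2 sums from 0 to 20.2 CPM with 6 of 8 at 0, and the groups did not overlap. The level difference was 6.45 ± 2.59 log2(CPM + 1) (Foxp2 minus Cux2, SD, n = 8), with an edgeR adjusted p of 0.000221. Against Rorb nuclei it was 6.34 ± 2.77 (SD, n = 8), where 7 of 8 Rorb sums were 0 and the other was 1.61 CPM (adjusted p 3.54e-06). The call against Rorb held under all 15 alternatives; the call against Cux2 was lost without library set B (0.055), in set A alone (0.129), with the library set as a term (0.0856) and with at least 5 nuclei per sum (0.0948).
Between the classes Nrp1 was read in 23.1% of glutamatergic and 2.26% of GABAergic nuclei. Glutamatergic sums ran from 7.02 to 195 CPM (median 97.5) and GABAergic sums from 0 to 44.03 CPM with 7 of 12 at 0, and the level was above in 12 of 12 vector groups by 1.98 ± 1.11 log2(CPM + 1) (SD, n = 12, edgeR adjusted p 0.00701). The call was lost in 4 of 14 alternatives (0.199 to 0.84), among them without library set B (0.46). Nrp1 (ENSMUSG00000025810) lies at chr8:128358604-128503363. Nrp2 was read in 7.27% and 2.58% of the classes and did not pass the filter.

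Sema6d, a membrane semaphorin that binds Plxna1, was read in 51.0% of Sst and 8.03% of Pvalb nuclei. The Sema6d gene overlaps 4930517E11Rik and 4930583P06Rik on the opposite strand, and reads were not separated between them. Sst sums ran from 0 to 184 CPM (median 71.2, 12 of 13 above 0) and Pvalb sums from 0 to 49.5 CPM (median 0.41), with a level difference of 2.86 ± 1.71 log2(CPM + 1) (SD, n = 13) and an edgeR adjusted p of 0.0428. The call was lost without any 1 of AiE0390m, AiE0391h, AiE0410m, AiE0447h, AiE0452h, AiE0600m, DLX2.0, hSyn1, AiE0450h and hI56i (0.0527 to 0.0974), and in 9 of 15 alternatives (0.0512 to 0.491). Sema3a, a secreted repellent, was read in 29.8% of Sst nuclei and in 0 of 52 Adarb2 nuclei. All 7 Adarb2 sums were 0 beside Sst sums of 0 to 113 CPM (median 68.5), with an edgeR adjusted p of 0.0437. This call was lost without any 1 of AiE0390m, AiE0391h, AiE0452h, AiE0600m, CMV, DLX2.0, hSyn1, AiE0450h and hI56i (0.0536 to 0.111), and in 6 of 15 alternatives (0.0579 to 0.248).

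**Figure D3:**
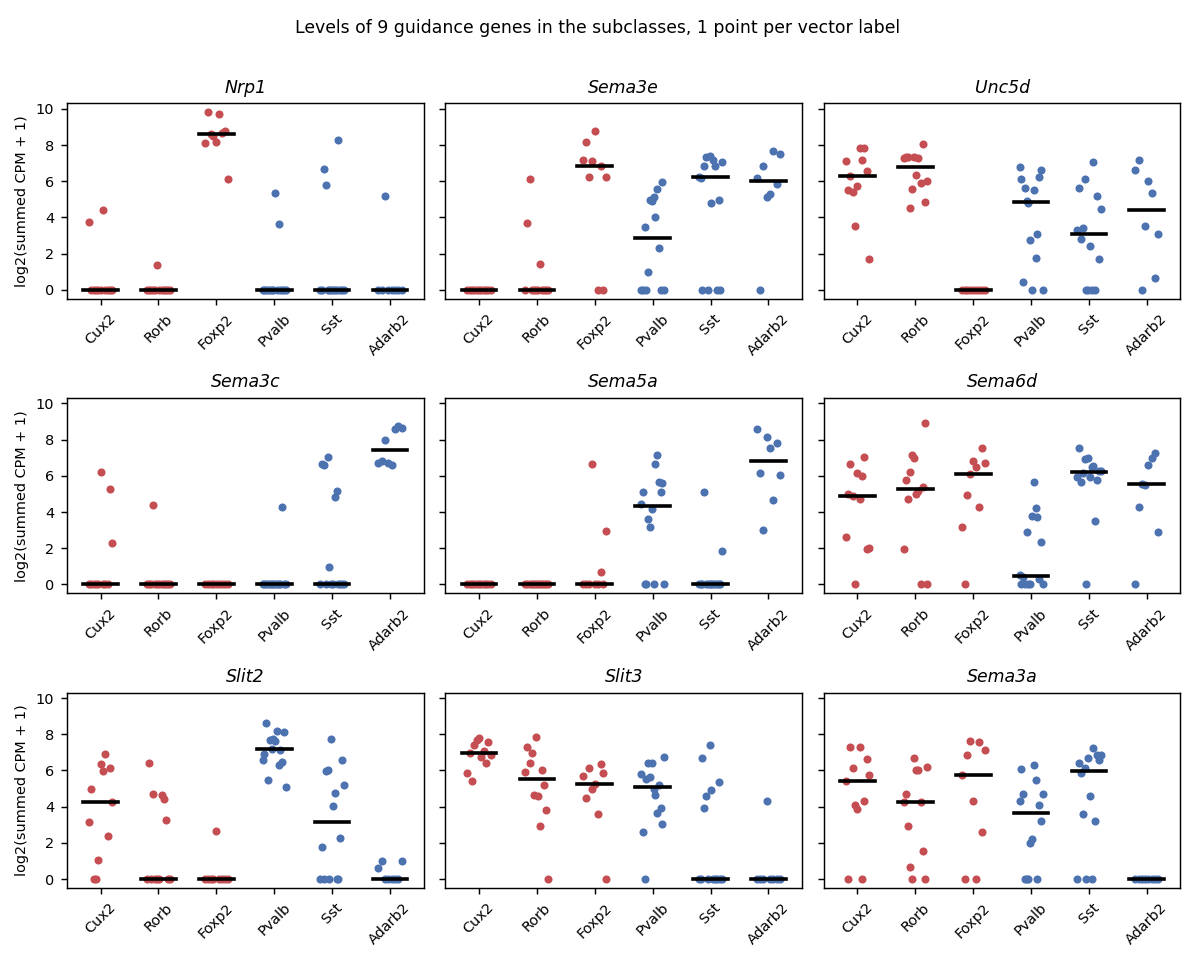
Summed level, log2(summed CPM + 1), of 9 guidance genes in the 6 subclasses; each point is 1 vector group with at least 3 nuclei of the subclass, red for glutamatergic and blue for GABAergic subclasses, and bars are medians. Nrp1 is high in all Foxp2 sums, Unc5d is 0 in all of them, and Sema3c is high in all 8 Adarb2 sums.

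Of the plexins, the receptors of semaphorins, 6 passed the filter between the classes and 0 were called; Plxnd1, called without the filter, is described above. Plxna4 was read in 30.9% of glutamatergic and 47.7% of GABAergic nuclei, with sums of 16.99 to 93.1 CPM (median 55.0) against 65.5 to 193 CPM (median 128) and an edgeR adjusted p of 0.109. The Plxna4 locus holds 3 opposite-strand RNAs of the table, so its reads carry the limit on strand. Plxnc1 was read in 21.8% and 32.9% (adjusted p 0.177), and Plxna2 in 41.3% and 30% (0.621). Plxnb2 was the plexin called between subclasses. It was read in 9.62% of Adarb2 and 0.73% of Pvalb nuclei, with 5 of 8 Adarb2 sums above 0 (up to 193 CPM) and all 8 Pvalb sums at 0 (adjusted p 0.0489). The call rested on few nuclei and was lost without any 1 of AiE0390m, AiE0447h, AiE0452h, AiE0600m, AiE0743m_3xC2, CMV, DLX2.0, AiE0450h and hI56i (0.0549 to 0.136), and in 7 of the 11 alternatives that tested it (0.0535 to 0.236).

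Epha4 and Ephb1 were the Eph receptors called higher in glutamatergic nuclei. Epha4 is a receptor tyrosine kinase that binds both ephrin A and ephrin B ligands. It was read in 48.3% of glutamatergic (43.2 to 53.4) and 12.9% of GABAergic nuclei (9.38 to 17.2). Glutamatergic sums ran from 93.0 to 417 CPM (median 218) and GABAergic sums from 13.2 to 73.6 CPM (median 29.1), so the groups did not overlap. The level was above in 11 of 12 vector groups by 2.89 ± 1.86 log2(CPM + 1) (SD, n = 12), and the fitted difference was 2.83 ± 0.35 (log2, SE) with an edgeR adjusted p of 1.29e-05. It was called in 12 of 14 alternatives; in the 6 combinations of vector and set the fitted difference was 4.11 (adjusted p 0.123) and in set A alone 3.83 (0.38). Among glutamatergic subclasses Epha4 was read in 62.7% of Cux2, 58.7% of Rorb and 26% of Foxp2 nuclei, without a call. Epha4 spans chr1:77367185-77515088 on the minus strand (mm10) and overlaps no other gene of the table.

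Ephb1, a receptor of ephrin B ligands, was read in 22.3% of glutamatergic and 3.55% of GABAergic nuclei. The Ephb1 gene overlaps 9630041A04Rik on the opposite strand and Gm29388 on the same strand. Its reads were not separated from theirs. Its sums ran from 0 to 62.6 CPM (median 23.7) against 0 to 19.9 CPM with 7 of 12 at 0, and the level was above in 11 of 12 vector groups by 1.10 ± 0.55 log2(CPM + 1) (SD, n = 12, edgeR adjusted p 0.0237). The call was lost without AiE0390m (adjusted p 0.0505) or AiE0475m (0.0509), and in 6 of 14 alternatives (0.0717 to 0.822; 0.222 without library set B). Foxp2 nuclei had the largest share among the subclasses at 42.0%, without a call.

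Other Eph receptors were read widely in both classes and were not called in any comparison. Epha5, an ephrin A receptor, was read in 76.6% of glutamatergic and 66.8% of GABAergic nuclei, with sums of 55.1 to 882 CPM (median 262) and 126 to 317 CPM (median 229) and an edgeR adjusted p of 0.578. Epha10 and Ephb6, Eph receptors without kinase activity, were read in 45.5% and 42.6%, and in 37.7% and 24.2% (adjusted p 0.555 and 0.133). Epha7 was read in 31.95% and 30% (0.898). Of the 8 ephrins, the ligands of Eph receptors, 3 passed the filter and 0 were called: Efna5 was read in 26.5% and 19.7% (0.802), Efna3 in 17.9% and 11.3% (0.838) and Efnb2 in 12.5% and 8.71% of the classes (0.342). Efna1 did not pass the filter, and without it Efna1 was called higher in glutamatergic nuclei, by 7.75 ± 2.27 (log2, SE, edgeR adjusted p 0.0268).

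Of 74 further guidance genes, the co-receptors, cytoplasmic effectors and adhesion partners of these receptors, all 74 were in the table and 63 passed the filter in the class comparison. Higher in glutamatergic nuclei were 8 and lower 2, beside the 3.57% and 3.35% of all genes given above, with a median fitted difference of 0.04 (log2). Nell2, the secreted ligand of Robo3, was higher by 3.23 ± 0.54 (log2, SE, edgeR adjusted p 0.000457). Ngef, an exchange factor that acts below Epha4, was higher by 3.61 ± 0.79 (0.00514), and Chn1, a Rac GTPase-activating protein that also acts below Epha4, by 1.21 ± 0.19 (0.0002). The adhesion molecule Nrcam was higher by 1.64 ± 0.21 (2.34e-05) and the focal adhesion kinase gene Ptk2 by 2.26 ± 0.35 (0.0002). The other 3 higher genes were Pak1, Gap43 and Mical2, named after their values were seen. Fez1, a kinesin adaptor, was lower, with a difference of -1.90 ± 0.48 (0.0164), and so was Srgap3, a GTPase-activating protein that binds Robo receptors, with -1.23 ± 0.36 (0.037).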

How the data were processed

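The authors deposited unnormalized read counts of every gene in each nucleus, from SMART-Seq v4 libraries without molecular identifiers, so PCR copies are counted separately and intervals cover counting error only. Per the submitters' processing notes the authors used STAR 2.7.2a and mm10; no counter, annotation or strand setting, and no treatment of introns, is given in the sources used here, and unspliced RNA of long genes could raise their counts where introns were counted. Columns were matched to samples by library name (797 of 2501; the other 1704 were not used), and 32158 of 32285 gene rows had a symbol, the rest holding 0.0931% of reads. Gene positions are those of GENCODE M21 on mm10; promoters are from RefSeq (GRCm38.p6).

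The members, lists and tests were chosen with earlier results of these data known. Nuclei with at least 50000 reads and 1000 genes were kept (781; 8712 to 666436 reads over all nuclei, median 290674). Counts were summed per class and vector group (at least 5 nuclei, or 3 for a subclass), normalized by TMM, filtered with filterByExpr and tested with edgeR 4.0.16 (R 4.3.3; glmQLFit robust, vector group as a block), with Benjamini-Hochberg adjustment over all genes tested and a threshold of 0.05. A subclass went to the highest of its 3 gating genes. The level of a group is the mean over nuclei of log2(CPM + 1). The steps were tested on simulated counts. At a simulated log2 change of 2, edgeR called 11 of 71 changed genes between the classes, 0 of 67 in Foxp2 against Cux2 and 2 of 62 in Adarb2 against Pvalb sums. At a change of 3 it called 23 of 63, 7 of 63 and 5 of 65. Of the unchanged genes 0, 0 and 1 were called. A gene that was not called can therefore still differ. Named are called members, up to 8 of the members with most reads called in no comparison, the netrin, Dcc, Unc5, Slit and Robo genes, known binding partners, and up to 5 partner genes per direction. DESeq2 1.42.0, limma 3.58.1, other filters, gates, depths and library sets were alternatives; the numbers in the labels only count nuclei and pair nothing. Thresholds on mitochondrial reads and glial markers and the library set as a term were added after seeing the data.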

Additional observations from a re-analysis of the deposited data

Results flagged for a closer look

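Among the genes called, sets of 4 to 10 vector groups were examined 12 times, some of them the same set again, and 2 held a value far from the others. The number to be marked by chance was not estimated. The Sema3c level of Adarb2 nuclei was 5.88 log2(CPM + 1) in the hI56i vector group (9 nuclei, 403 CPM summed), with the next of the 8 vector groups at 4.08. The Slit3 level of Adarb2 nuclei was 1.43 log2(CPM + 1) in the AiE0452h vector group (4 nuclei, 18.7 CPM summed), and it was 0 in the other 7. With all others at 0, any single level above 0 is marked.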

How the results depend on the processing

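The number of guidance genes called depended on the tool. DESeq2 called 29 of the 72 guidance genes between the classes, and 21.4% of all genes tested. It called 4 in Rorb against Cux2 (3.39% of all genes), 12 in Foxp2 against Cux2 (8.6%) and 15 in Foxp2 against Rorb nuclei (8.26%). In Sst against Pvalb it called 7 (9.82%), in Adarb2 against Pvalb 14 (19.4%) and in Adarb2 against Sst nuclei 11 (12.9%). limma on mean levels called 19 between the classes (16.7% of all genes), 5 in Foxp2 against Cux2 (2.4%) and 4 in Foxp2 against Rorb nuclei (2.2%). It called 4 in Sst against Pvalb (6.23%) and 8 in Adarb2 against Pvalb nuclei (9.14%). Between the classes, sums per vector and library set gave 0 (1.13% of all genes) and library set A alone 0 (0.363%). Leaving out set B gave 2 (2.79%) and at least 10 nuclei per sum 3 (3.56%). Fewer vector groups entered these fits. In Foxp2 against Cux2 nuclei the count was 1 without set B (0.274% of all genes), 0 in set A alone (0.219%) and 1 with the set as a term (0.436%). In Sst against Pvalb nuclei it was 1 in sums per vector and set (2.23% of all genes), 1 without set B (1.49%) and 0 in set A alone (1.2%). There it was 0 with at least 5 nuclei per sum (0.485%) and 0 without nuclei with a glial or vascular marker (1.94%). With the set as a term it was 1 (2.8%). With at least 5 nuclei per sum the count was 2 in Adarb2 against Pvalb (0.865% of all genes) and 0 in Adarb2 against Sst nuclei (0.372%). With exactly 1 gating gene it was 1 in Adarb2 against Sst nuclei (1.04%). Without the replicate block, that is, unpaired for the vector group, 6 were called between the classes (6.55% of all genes). Unpaired, 0 were called in Sst against Pvalb (1.3%) and 5 in Adarb2 against Sst nuclei (3.87%). Leaving out each vector group in turn gave 6 to 8 between the classes, 0 to 0 in Rorb against Cux2, 2 to 3 in Foxp2 against Cux2, 2 to 2 in Foxp2 against Rorb, 0 to 1 in Sst against Pvalb, 2 to 5 in Adarb2 against Pvalb and 1 to 3 in Adarb2 against Sst nuclei. The cause of these differences was not tested.

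Of the 23 calls, 4 held in every alternative run: Nrp1 and Unc5d in Foxp2 against Rorb and Sema3c and Slit2 in Adarb2 against Pvalb nuclei. No fitted difference of the 23 reversed. RLE in place of TMM moved the median of all genes from -0.476 to -0.367 in Foxp2 against Cux2, from -1.181 to -0.966 in Adarb2 against Pvalb and from -0.654 to -0.51 in Adarb2 against Sst nuclei, and ended 1 of the 23 calls, Slit2 in Adarb2 against Sst nuclei. Ntn4 and Plxnb2 were not among the genes tested in 4 alternatives each, Sema4a in 2 and Sema3e in 1. A gene in few nuclei of a vector group is often at 0 there, and at this number of nuclei a difference in such a gene was often not detectable.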
